A study of Mus musculus with 6 samples.

Results

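The genes described here mark the first steps of lymphoid development and the T and natural killer (NK) lineages. They are Dntt, Satb1, Notch1, Tcf7, Zbtb16, Id2, Cd7, Cd5 and Cd6, picked by gene symbol, and all 9 of 9 were among the 12161 genes measured. The 9 genes were picked with their differences between the vectors already known, so those differences are given as a description, with no test. Messenger RNA was sequenced from LSK cells, the lineage-negative, Sca1-positive and Kit-positive bone marrow cells that include blood stem cells and multipotent progenitors. The 3 MIG-Hhex libraries came from cells carrying the retrovirus MIG-Hhex, a vector that brings in Hhex, a homeobox transcription factor of early blood cells, and the labels give their genotype as Hhex. The 3 MIG libraries came from cells with the vector MIG alone, labelled wild-type. Both groups were LSK cells sorted from the bones of C57BL/6 mice, transduced, grown for 2 days in IL-3 and IL-6 (10 ng/mL each) plus stem cell factor and Flt3 ligand (50 ng/mL each), and sorted for GFP before RNA was taken. The LSK fraction is a mixture of progenitors, and the labels do not give the promoter that drives the vector. The labels call the 3 samples of a group biological replicates, named WT3, WT691 and WT703 in both groups. They give neither the age and sex of the mice nor how many mice stand behind a sample. Both WT3 libraries were read on flow cell C3RJFACXX and the other 4 libraries on C5LWPANXX.

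Lymphoid progenitors arise from multipotent cells that begin to transcribe lymphoid genes at low level before any lineage is fixed, a step called lymphoid priming. In the thymus, Notch1 signalling then switches on Tcf7 and other T lineage genes, while Id2 and Zbtb16 mark the route to NK and innate lymphoid cells. Id2 acts by binding E proteins, factors that recognise the E box in DNA and drive B and T cell development. In mice, Hhex itself is needed for lymphoid progenitors to form.

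Upstream DNA is shown for 3 of the 9 genes to set E boxes, the sites at issue for Id2 and its E protein partners, beside a gene that was lower with MIG-Hhex (Dntt) and 2 that were higher (Id2 and Cd5). The sequences are RefSeq promoter windows of GRCm38.p6 cut to the 250 bases before the start site that the RefSeq table uses, written 5′ to 3′ on the gene's strand, with E boxes (CANNTG, which reads alike on both strands) in capitals. 
Dntt: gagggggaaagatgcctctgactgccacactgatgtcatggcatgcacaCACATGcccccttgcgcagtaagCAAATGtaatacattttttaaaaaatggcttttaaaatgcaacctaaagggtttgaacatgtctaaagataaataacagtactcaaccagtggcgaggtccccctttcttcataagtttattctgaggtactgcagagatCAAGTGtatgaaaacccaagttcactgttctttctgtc
Id2: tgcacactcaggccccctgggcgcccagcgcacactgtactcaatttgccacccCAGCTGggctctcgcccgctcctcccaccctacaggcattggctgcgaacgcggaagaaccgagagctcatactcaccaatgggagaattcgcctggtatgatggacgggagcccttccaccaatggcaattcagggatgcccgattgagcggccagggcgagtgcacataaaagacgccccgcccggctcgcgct
Cd5: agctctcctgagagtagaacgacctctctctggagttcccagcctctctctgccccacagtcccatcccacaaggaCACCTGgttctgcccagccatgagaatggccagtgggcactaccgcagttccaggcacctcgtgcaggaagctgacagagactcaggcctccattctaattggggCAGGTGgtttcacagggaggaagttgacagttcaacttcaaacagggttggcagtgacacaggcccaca
The Dntt window lies at chr19:41029025-41029274 on the plus strand and held 3 E boxes. The Id2 window, chr12:25096093-25096342 on the minus strand, held 1, and the Cd5 window, chr19:10738975-10739224 on the minus strand, held 2. Its start site lies within the annotated gene, so 52 bases of the Cd5 window are inside Cd5, while the other windows end at the gene's edge. The window of Notch1, the other gene of the 4 with a single window, held 0. Among all 32851 windows of this length, 66.2% held at least 1 E box. The core of TCF and LEF sites (CTTTGA, on either strand, in 13.8% of all windows) and a core of homeodomain sites (ATTAA, on either strand, in 24.9%) had 0 matches in each of the 4 windows. The core of sites for RBPJ, the DNA-binding partner of Notch (TGGGAA, on either strand, in 21.6% of all windows), had 1 match, in the Cd5 window. Such matches describe letters only and are not binding sites.

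With MIG-Hhex, Dntt and Satb1 were lower. Of the other 7 genes, the factors Tcf7, Zbtb16 and Id2 and the surface proteins Cd7, Cd5 and Cd6 were higher, and Notch1, the receptor, differed little. In 6 of the 9 genes each MIG-Hhex library lay above each MIG library, and in 2 each lay below; among all genes measured 10.2% and 11.0% did so. In a limma fit over all genes with a term for the flow cell, 6 of the 9 were past an adjusted p of 0.05 as higher and 2 as lower, against 9.44% and 8.52% of all genes; since the genes were picked on this contrast, nothing is read from these counts. With flow cell C3RJFACXX left out, 5 were past it as higher and 1 as lower, Cd5 and Dntt dropping out. Without the flow cell term the counts were 2 and 0. In RNA from a mixed population, fewer cells of a type and less RNA per cell cannot be told apart.

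**Figure D1:**
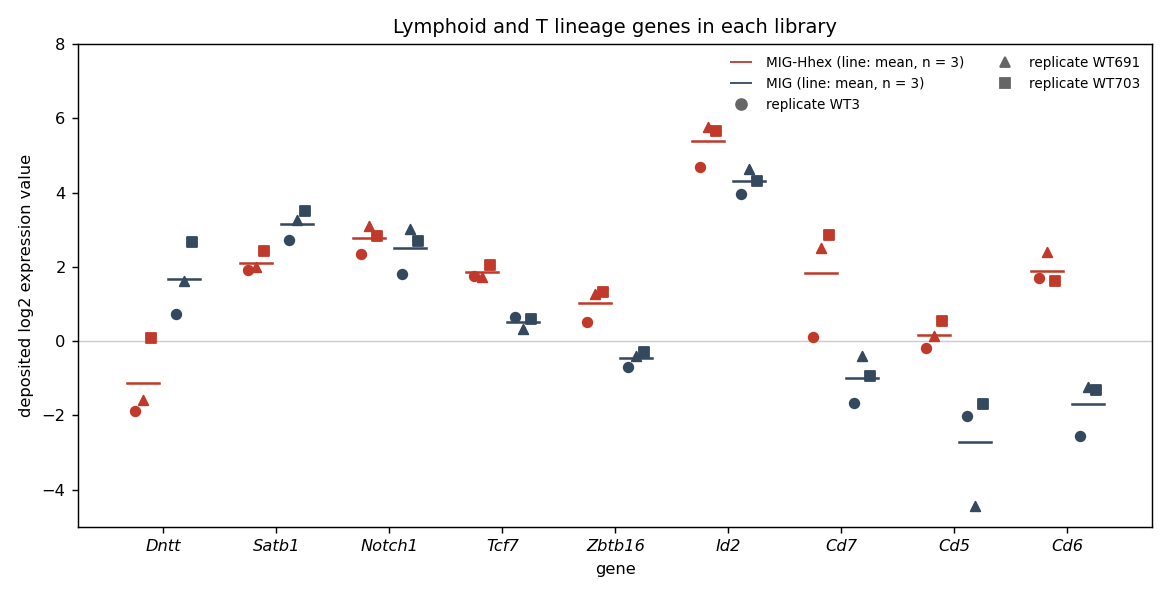
Deposited log2 expression value (vertical axis) of each gene in the 3 MIG-Hhex libraries (red, left of each pair) and the 3 MIG libraries (dark, right), with circles for replicate WT3, triangles for WT691, squares for WT703 and a line for the group mean. Dntt and Satb1 are lower in all MIG-Hhex libraries, Notch1 overlaps between the groups, and the other 6 genes are higher in all MIG-Hhex libraries.

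The deposited values are on a log2 scale and behave as values per length of transcript. When the length was taken out by adding the log2 of the exon length in kilobases, the 20 lowest values of each library stacked at a common lower limit, with medians between −4.17 and −4.04. Levels of different genes can therefore be set side by side, and the distance from that limit shows how much signal a value holds. Id2 was the highest of the 9 genes in both groups, at 5.38 ± 0.59 with MIG-Hhex and 4.30 ± 0.33 with MIG (log2, SD, n = 3 each), and no other gene reached its range. In MIG-Hhex libraries the order below Id2 was Notch1, Satb1, Cd6, Tcf7, Cd7, Zbtb16, Cd5 and Dntt, and from Notch1 down each gene's range overlapped that of the next. In MIG libraries the order was Id2, Satb1, Notch1, Dntt, Tcf7, Zbtb16, Cd7, Cd6 and Cd5. There only the steps from Id2 to Satb1, from Dntt to Tcf7 and from Tcf7 to Zbtb16 were wider than the ranges. Dntt thus stood last with MIG-Hhex and above 5 of the other genes with MIG. Group means lay below 0 for Dntt alone with MIG-Hhex, and for Zbtb16, Cd7, Cd6 and Cd5 with MIG.

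Dntt encodes terminal deoxynucleotidyl transferase, which adds untemplated bases at the joints of rearranged antigen receptor genes. It lies on chromosome 19 from 41029275 to 41059525. Its log2 value was −1.88, −1.59 and 0.08 in the MIG-Hhex libraries of WT3, WT691 and WT703, against 0.73, 1.63 and 2.66 in the MIG libraries. The groups did not overlap, and WT703 was the highest library in both. The fitted difference, MIG-Hhex minus MIG, was −2.80 (SE 0.47), a 6.97-fold lower level, and it was −2.61, −3.22 and −2.58 in the 3 replicates. Leaving out the MIG-Hhex library of WT703 gave −3.25 and leaving out that of WT691 −2.30. The lowest value lay 3.37 above its library's lower limit, so the MIG-Hhex levels rest on little signal. Setting all values below 0 to 0 shortened the difference to −1.65.

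Satb1 encodes a chromatin organiser that readies stem cells for the lymphoid lineages (chromosome 17, 51736187 to 51833290). MIG-Hhex libraries gave 1.92, 2.01 and 2.42, and MIG libraries 2.72, 3.25 and 3.50, again with WT703 highest in both groups and no overlap. The difference was −1.04 (SE 0.15), 2.06-fold lower, with −0.80, −1.25 and −1.08 in the replicates. Over the 6 libraries the profile of Satb1 followed that of Dntt closely (Pearson r = 0.99), a value that the shared vector and replicate differences contribute to.

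Notch1 encodes the receptor that sets progenitors on the T cell path (chromosome 2, 26457902 to 26503822). Its values were 2.35, 3.10 and 2.84 with MIG-Hhex and 1.82, 3.02 and 2.69 with MIG. The groups overlapped, since the MIG-Hhex library of WT3 lay below 2 of the MIG libraries. The difference was 0.26 (SE 0.15), made up of 0.54 in replicate WT3, 0.09 in WT691 and 0.15 in WT703. Spread between replicates within a group (SD 0.38 with MIG-Hhex and 0.62 with MIG) was wider than the gap between the vectors. The differences within replicates had an SD of 0.24, just below that gap.

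Tcf7 encodes TCF-1, an early T lineage factor that Notch signalling induces (chromosome 11, 52246527 to 52283383). It stood at 1.76, 1.73 and 2.05 in MIG-Hhex libraries, against 0.66, 0.32 and 0.59 in MIG libraries. The 2 groups lay far apart relative to their spread (SD 0.18 in each), and the difference was 1.33 (SE 0.17, 2.51-fold). Replicates gave 1.10, 1.42 and 1.47. In the RefSeq annotation the whole span of Tcf7 overlaps that of the gene Skp1a by 332 bases. Skp1a is far more abundant, with means of 7.74 and 7.51 with MIG-Hhex and MIG, and the sources used here do not say whether strand was used in counting. How reads of the shared stretch were assigned is not stated, and their part in the Tcf7 difference was not tested. Skp1a itself differed by 0.22 (SE 0.13, limma adjusted p = 0.269).

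Zbtb16 encodes PLZF, the zinc finger factor of NKT cells and innate lymphoid precursors, which some stem and myeloid cells also make (chromosome 9, 48651797 to 48836225). Its values were 0.52, 1.27 and 1.33 with MIG-Hhex and −0.71, −0.41 and −0.29 with MIG. Every MIG-Hhex library was above 0 and every MIG library below. The difference came to 1.51 (SE 0.18, 2.84-fold), with 1.22, 1.68 and 1.62 in the replicates.

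Id2 encodes an inhibitor of E proteins that NK cells, innate lymphoid cells and dendritic cells need (chromosome 12, 25093799 to 25096092). The MIG-Hhex libraries held 4.70, 5.78 and 5.66 and the MIG libraries 3.97, 4.63 and 4.31. The gap between the groups was narrow, since the MIG-Hhex library of WT3 lay just above the MIG library of WT691. Within replicates the difference was 0.73, 1.15 and 1.35, and the fit gave 1.08 (SE 0.13, 2.11-fold). Id2 was at the 69.1 to 85.4 percentile of its library's genes with MIG-Hhex and at the 56.9 to 68.3 percentile with MIG.

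Among the surface proteins, Cd7 is found on T and NK cells and their progenitors (chromosome 11, 121036747 to 121039478). It stood at 0.10, 2.50 and 2.86 with MIG-Hhex, against −1.67, −0.40 and −0.94 with MIG. The MIG-Hhex libraries were uneven, with WT3 far below the other 2 (SD 1.5), yet still above every MIG library. The difference was 2.83 (SE 0.36, 7.09-fold), with 1.77 in WT3, 2.90 in WT691 and 3.8 in WT703. Cd7 is the shortest of the 9 transcripts, with 982 exonic bases, and its MIG values lay only 2.35 to 3.73 above the lower limit. Cd7 and Id2 shared their profile over the libraries (Pearson r = 0.99, n = 6).

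Cd5 and Cd6 encode related scavenger receptor cysteine-rich proteins of T cells that tune signalling from the T cell receptor, and Cd6 binds the adhesion protein ALCAM. They are neighbours on chromosome 19 (Cd5 from 10718107 to 10739026, Cd6 from 10789339 to 10830062), 50.3 kb apart with 0 RefSeq protein-coding genes between them. Cd6 had values of 1.69, 2.40 and 1.62 with MIG-Hhex and of −2.56, −1.23 and −1.32 with MIG. No other of the 9 genes had a wider fitted difference, 3.60 (SE 0.30, 12.1-fold), and replicate WT3 gave 4.25, WT691 3.63 and WT703 2.93. The Cd6 MIG values of WT3, WT691 and WT703 lay 3.09, 4.53 and 4.45 above the lower limit, so they rest on little signal. With values below 0 set to 0, the Cd6 difference was 1.90. Cd5 had values of −0.18, 0.13 and 0.54 with MIG-Hhex and of −2.0, −4.44 and −1.70 with MIG. The MIG libraries scattered widely (SD 1.5), and the WT691 value lay 1.36 above its library's lower limit, in the range where few reads decide. The fitted difference of 2.88 (SE 0.73, 7.35-fold) drew on 4.57 in that replicate and on 1.82 and 2.25 in WT3 and WT703. It was 1.94 without the MIG library of WT691 and 0.22 when values below 0 were set to 0, so its size is the least certain of the 9.

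The measured genes on either side of the 9 were compared as well. Slc15a3, a lysosomal peptide and histidine transporter that starts 12.5 kb beyond Cd6, also rose with MIG-Hhex. Its values were 3.77, 4.73 and 4.10 with MIG-Hhex and 1.98, 1.05 and 0.70 with MIG, a difference of 2.96 (SE 0.37, limma adjusted p = 0.00484). On the far side of Cd5, Vps37c, a subunit of a membrane sorting complex 3.48 kb away, differed by −0.24 and did not pass (limma adjusted p = 0.0767). Rnf144a, a ubiquitin ligase and the next measured gene above Id2 at a distance of 1211 kb, rose by 0.89 (limma adjusted p = 0.00191). Rab5a, an endosomal GTPase 1646 kb from Satb1, fell by 0.27 (limma adjusted p = 0.0257), a call that held in 1 of 9 runs without a library or replicate. The neighbours of Dntt, Notch1, Tcf7, Zbtb16 and Cd7, and the nearer neighbours of Satb1 and Id2, did not pass.

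**Figure D2:**
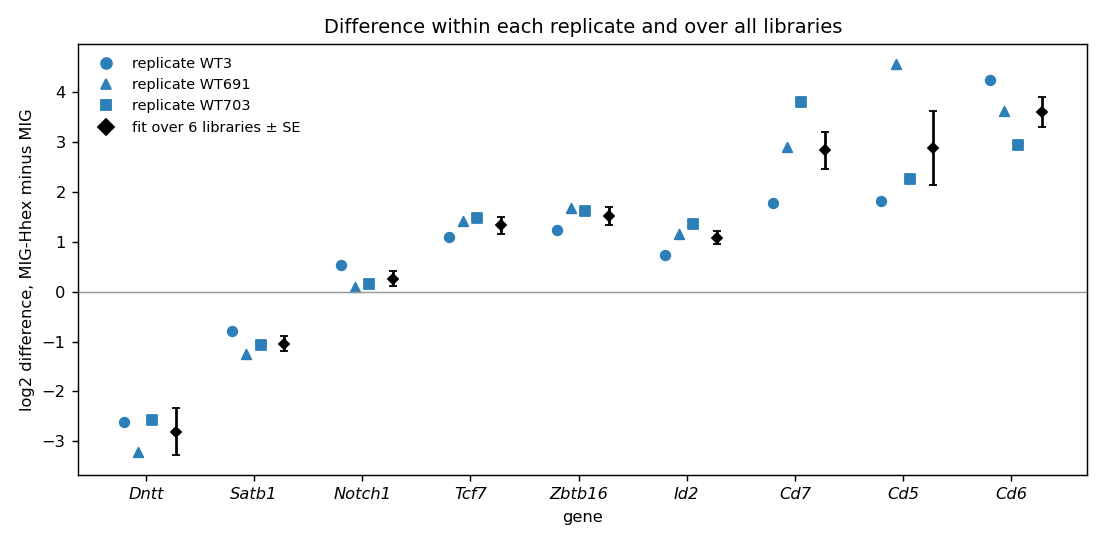
Log2 difference, MIG-Hhex minus MIG, of each gene within replicates WT3 (circles), WT691 (triangles) and WT703 (squares), and the fit over the 6 libraries with its SE (black diamonds). All 3 replicates lie on the same side of 0 for each gene, and those of Cd7 and Cd5 are spread most.

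The 3 replicates did not differ by the same amount. Of the 9 genes, 6 had their smallest difference in WT3, 2 in WT703 and 1, Notch1, in WT691. The median size of the 9 differences was 1.22 in WT3, 1.68 in WT691 and 1.62 in WT703. Hhex itself, the gene on the vector, stood at 7.61, 9.34 and 9.06 in the MIG-Hhex libraries of WT3, WT691 and WT703, against 5.18, 5.05 and 5.13 in the MIG libraries, so the library with the least added Hhex was also WT3. Cd6 and Notch1 went the other way, with their widest differences in WT3. For Cd6, the MIG value of that replicate lay only 3.09 above the lower limit. Replicate WT3 is also alone on its flow cell, so the 2 cannot be told apart. Whether the amount of Hhex bears on these sizes was not tested.

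The difference between the flow cells was not used in picking the genes and was tested in the same fit. With the vector held constant, 5 of the 9 genes were lower on flow cell C3RJFACXX than on C5LWPANXX and 0 were higher (limma adjusted p under 0.05), where 21.6% of all genes were lower and 25.0% higher. Cd7 was lower by 3.46-fold (log2 −1.79, SE 0.38, limma adjusted p = 0.0101), Notch1 by 1.77-fold (−0.83, SE 0.16, 0.00636) and Id2 by 1.70-fold (−0.76, SE 0.14, 0.0057). Satb1 (−0.48) and Zbtb16 (−0.57) lay just inside the threshold, with adjusted p = 0.0487 and 0.0488 in limma. Dntt (−1.27, SE 0.50) and Cd6 (−0.80, SE 0.32) did not pass (limma adjusted p = 0.0785 and 0.082). Tcf7 and Cd5 had differences of 0.04 and 0.27. The median over the 9 genes was −0.76, against 0.03 over all genes. Replicate WT3 is alone on its flow cell, so flow cell and replicate cannot be told apart. The fit took the 2 WT3 libraries as independent although both carry the same replicate number. The contrast thus rests on 1 replicate against 2, and its p-values, and the count of 5, are too favourable. Leaving out the MIG-Hhex library of WT3 ended the calls of Cd7 and Id2 (limma adjusted p = 0.0882 and 0.0658), and leaving out its MIG library that of Notch1 (0.0854). The calls of Satb1 and Zbtb16 were lost in 10 of 12 alternatives each.

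**Figure D3:**
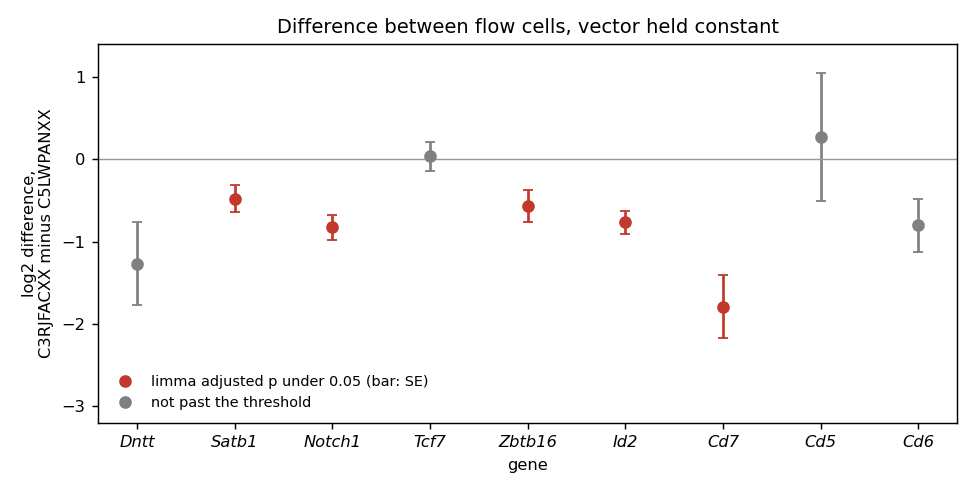
Log2 difference between flow cells, C3RJFACXX minus C5LWPANXX, with the vector held constant, for each gene (points) with its SE (bars); red marks an adjusted p under 0.05 in limma. Cd7, at −1.79, is furthest below 0, and Tcf7 and Cd5 lie at or above 0.

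Other genes of these pathways were taken from 11 lists. The lists were drawn up with earlier results of these data known, so their counts are a description only. Beside the 9 genes the lists held 170 distinct measured genes, of which 35 rose, 15 fell and 120 did not pass (limma, adjusted p under 0.05 over all genes), with a median difference of 0.04 against −0.02 over all genes. These are shares of 20.6% higher and 8.82% lower, beside 9.44% and 8.52% of all genes, so the share of falls was near that of all genes. Single lists ranged from 0% to 36.4% higher and from 0% to 30% lower on 10 to 39 genes each, and no list was tested against the rest. The counts fell to 10 higher without replicate WT703, and to 4 lower without its MIG library. The text gives up to 3 genes per list and direction by smallest p. Hhex is among the lists' rises as the gene on the vector.

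The list of early lymphoid progenitor genes had 28 other members, of which 7 rose and 1 fell, with 20 not passing and a median difference of 0.10. Runx1, a core factor of blood stem cells, rose by 0.75 (SE 0.12, limma adjusted p = 0.00937). Ikzf1, the lymphoid factor Ikaros, rose by 0.29 (limma adjusted p = 0.0129). Runx1 missed the threshold without replicate WT703 (limma adjusted p = 0.0601), and Ikzf1 in 3 of 9 runs without a library or replicate (up to 0.0763). Hmga2, a chromatin protein abundant in fetal stem cells, fell by 1.42 (SE 0.30, limma adjusted p = 0.023), a call that held in 4 of 9 runs without a library or replicate. Flt3, the receptor that defines lymphoid-primed progenitors, had 2.60, 3.79 and 4.55 with MIG-Hhex and 2.83, 4.54 and 4.99 with MIG. Its difference was −0.23 in WT3, −0.75 in WT691 and −0.44 in WT703. The difference of −0.47 did not pass with the flow cell term (limma adjusted p = 0.182) and passed with the replicate block (limma adjusted p = 0.0241). Il7r, the cytokine receptor of committed lymphoid progenitors, was low in both groups (means −2.0 and −1.42 with MIG-Hhex and MIG) and did not pass either (limma adjusted p = 0.39). Rag1 and Rag2, the recombinase genes that act with Dntt, had no values under these symbols and were not analysed.

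Among the other 22 T lineage factors, 8 rose, 3 fell and 11 did not pass. These are shares of 36.4% and 13.6%, beside 9.44% and 8.52% of all genes. The 8 rises include Hhex, the gene on the vector. Gata3, the factor that follows Notch in T cell and innate lymphoid specification, had −0.99, 0.48 and 0.39 with MIG-Hhex, against −2.40, −0.76 and −1.05 with MIG. The groups overlapped, while each replicate showed a rise, and the fit gave 1.36 (SE 0.23, 2.57-fold, limma adjusted p = 0.0119). Zfpm1, the GATA cofactor FOG1, rose by 1.0 (SE 0.11, limma adjusted p = 0.00314). The factors that fell were Tox by 1.72 (SE 0.34, limma adjusted p = 0.0195), which guides T and innate lymphoid precursors, and by smaller amounts Lyl1 (0.29) and Tcf12 (0.31, the E protein HEB). Gata3 missed the threshold in 4 of the 9 left-out runs (adjusted p up to 0.0933, without replicate WT703), Tox in 4 (up to 0.0778, without the MIG library of WT703), Lyl1 in 6 and Tcf12 in 9. Bcl11b and Lef1, which act at and after T cell commitment, had no values under these symbols and were not analysed.

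The Notch pathway held 39 other measured genes, of which 5 rose, 3 fell and 31 did not pass, shares (12.8% and 7.69%) near those of all genes. Hes1, a repressor that Notch switches on directly, had 0.16, 0.79 and 0.69 with MIG-Hhex and −1.25, −1.59 and −1.42 with MIG, and rose by 1.96 (SE 0.26, 3.90-fold, limma adjusted p = 0.00543). Nrarp, a feedback inhibitor and another direct Notch target, had 1.68, 1.85 and 1.98 with MIG-Hhex and 1.07, 0.83 and 0.59 with MIG. It rose by 1.01 (SE 0.17, 2.01-fold, limma adjusted p = 0.0128). In both genes the groups did not overlap. Notch3, a receptor that is itself a Notch target in T cells, rose by 2.41 from very low values (SE 0.34, MIG-Hhex mean −0.58, MIG mean −3.00, limma adjusted p = 0.00723). In the other direction, Rbpj, the DNA-binding partner of Notch, fell by 0.62 (SE 0.08, limma adjusted p = 0.00523) and Psen2, a subunit of the protease that frees the receptor's inner part, by 0.68 (SE 0.07, 0.00268). Il2ra, the CD25 antigen, fell by 1.35, a call lost in each of the 9 left-out runs. Without replicate WT703, Hes1, Notch3 and Nrarp missed the threshold (limma adjusted p = 0.0602, 0.0629 and 0.0842), and Nrarp also did without replicate WT691 (0.0607) or its MIG-Hhex library (0.0577). Of the Notch ligands, Jag1 differed by −2.58 from a MIG mean of −2.29 and Jag2 by 0.77, and neither passed (limma adjusted p = 0.0952 and 0.151).

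Of 29 listed genes of the T cell receptor complex and its signalling, 14 had values; Cd3e, Cd3d, Cd3g, Cd247, Cd4, Cd8a, Zap70 and Ptcra were not analysed here. Of the 11 with values beside Cd5, Cd6 and Cd7, 2 rose, 1 fell and 8 did not pass. Sla2, an adaptor that dampens receptor signalling, rose by 1.44 (SE 0.23, 0.0104 in limma). The costimulatory receptor Cd28 fell by 1.27 (SE 0.34, limma adjusted p = 0.0494), and its call held in 1 of the 9 left-out runs. Lck, the kinase that starts T cell receptor signalling, had 1.81, 1.64 and 2.02 with MIG-Hhex and 1.98, 1.85 and 2.29 with MIG and did not pass (limma adjusted p = 0.381). Sla2 missed the threshold without replicate WT703 (limma adjusted p = 0.0528).

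The NK and innate lymphoid list had 20 measured genes beside Id2 and Zbtb16, of which 7 rose, 2 fell and 11 did not pass. Il1rl1, the IL-33 receptor of type 2 innate lymphoid cells and mast cells, rose by 0.71 (SE 0.09, limma adjusted p = 0.00528). Il18r1, the IL-18 receptor, rose by 1.08 (SE 0.21, 0.0177 in limma), with overlapping groups. Gata3 belongs to this list too. Tox, as above, and Itga4 fell; Itga4, an integrin chain used in homing, did so by 0.71 (SE 0.13, limma adjusted p = 0.0153). Il1rl1 kept its call in 8 of the 9 left-out runs, Il18r1 in 3 and Itga4 in 4, each missing it without replicate WT703 (limma adjusted p = 0.0535, 0.124 and 0.11).

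Of 10 other genes of E proteins, Id proteins and their partners, 1 rose and 3 fell. Cbfa2t3, the corepressor ETO2 that binds E protein complexes, rose by 0.95 (SE 0.14, limma adjusted p = 0.00747), and this was lost without replicate WT703 (0.0677). The E protein Tcf4 fell by 0.50 (SE 0.09, limma adjusted p = 0.0169), with overlapping groups and 5 of 9 left-out runs past the threshold, and Lyl1 and Tcf12 are given above. The Id relatives of Id2 did not pass. Id1 had 6.78, 6.00 and 6.23 with MIG-Hhex and 6.78, 5.72 and 5.85 with MIG (difference 0.22, limma adjusted p = 0.157), and Id3 differed by 0.70 between scattered low values (SE 0.83, limma adjusted p = 0.593).

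TCF and LEF partners moved apart within a family. Of 17 measured genes beside Tcf7, 5 rose, 3 fell and 9 did not pass. Tle3, a corepressor of the Groucho family, which TCF factors and Hhex bind, rose by 0.93 (SE 0.07, limma adjusted p = 0.00121), while its relatives Tle4 and Tle1 fell by 0.83 (SE 0.09, 0.00276) and 0.99 (SE 0.11, 0.00374). These 3 calls held in all 9 left-out runs, and the directions were the same under both rescalings tried, quantile normalization and median centring. Tle2 rose by 2.89 from values far below 0, and Ctnnbip1, an inhibitor of beta-catenin, rose by 0.49. Rnf43, a ubiquitin ligase that limits Wnt receptors, fell by 2.89, with overlapping groups. Its size rests on very low values of −6.27 in the MIG-Hhex libraries of WT691 and WT703, and replicate WT3 differed by −0.74. Tle2, Ctnnbip1 and Rnf43 were past the threshold in 3, 0 and 3 of the 9 left-out runs.

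**Figure D4:**
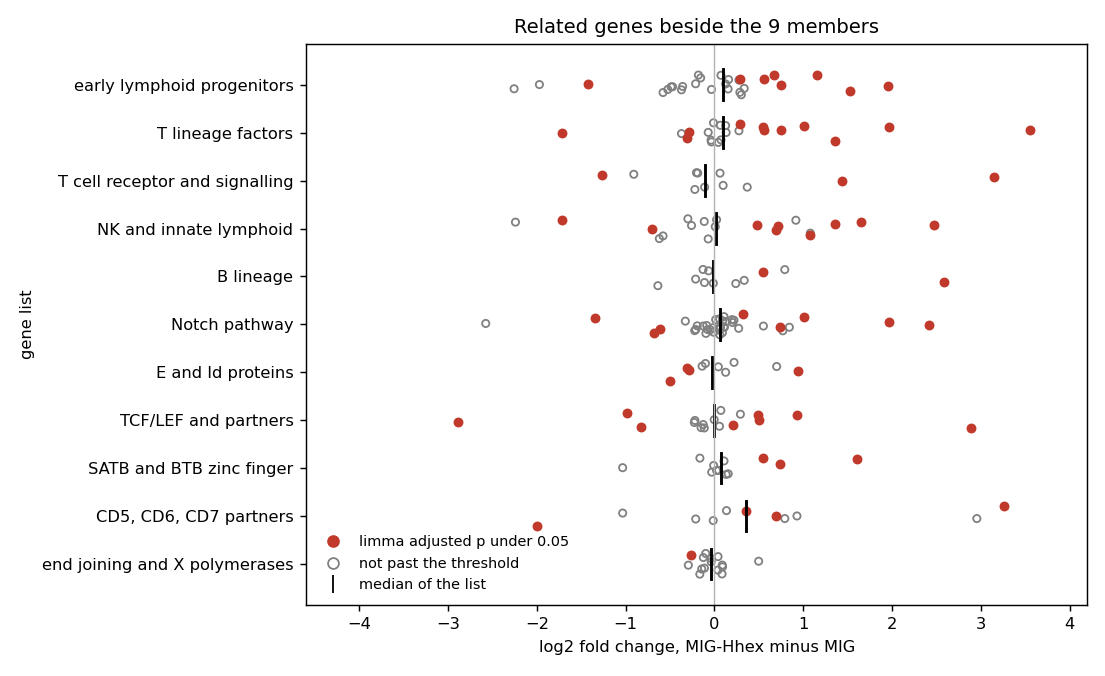
Log2 fold change, MIG-Hhex minus MIG (horizontal axis), of the genes of each list beside the 9 (rows), with filled red points for genes past an adjusted p of 0.05 in limma, open points for the others and a bar at the median. Medians lie between −0.11 and 0.35, and the point at 3.55 among the T lineage factors is Hhex.

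Of 12 other SATB and BTB zinc finger genes with their partners, 3 rose and 0 fell. Among them were Zbtb7b, the CD4 lineage factor ThPOK (0.55, limma adjusted p = 0.0199), and Zbtb46, a factor of dendritic cells (1.61, limma adjusted p = 0.0433). Zbtb7b kept its call in 3 and Zbtb46 in 0 of the 9 left-out runs. Of 11 scavenger receptor relatives and partners of Cd5, Cd6 and Cd7, 3 rose, 1 fell and 7 did not pass. Marco, a macrophage scavenger receptor with the same kind of domain, rose by 3.26 (SE 0.66, limma adjusted p = 0.0204). Its values in the MIG libraries were very low, at −5.03, −3.32 and −3.44. The phosphatase Ptpn6 (SHP-1) rose by 0.35 and the galectin Lgals1 by 0.70, and the adaptor Grap2 fell by 2.0. These 4 kept their calls in 3, 6, 3 and 3 of the left-out runs. Alcam, the ligand of Cd6, had 2.43, 2.39 and 2.48 with MIG-Hhex and 2.14, 2.47 and 2.28 with MIG and did not pass (limma adjusted p = 0.421). Sectm1a and Sectm1b, ligands of Cd7, had no values under these symbols and were not analysed. Of 15 end-joining partners and polymerase relatives of Dntt, 0 rose and 1 fell, Dnttip2, which binds the transferase, by 0.26 (SE 0.06, limma adjusted p = 0.037), a call lost in all 9 left-out runs. At an unadjusted p under 0.05 these 15 genes gave 0 rises, while Dnttip2 and Hmgb1 (−0.17, unadjusted p = 0.0497 in limma) were lower. Of 11 measured B lineage genes, 2 rose and 0 fell, the adaptor Bank1 by 2.58 (SE 0.19, limma adjusted p = 0.00118) and Irf8, a factor of B and myeloid cells, by 0.54 (SE 0.06, 0.00372). The B lineage factors Ebf1 and Pax5 had no values under these symbols and were not analysed.

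Markers of cells that the culture could hold were summed on a linear scale, 2 to the power of the log2 value, so that the sums are comparable between libraries of a list. Of 13 mature T cell markers, 2 were measured, Lck and Lat, and their sum ran from 16.9 to 26.5 with MIG-Hhex and from 14.5 to 20.04 with MIG. Of 10 mature NK cell markers, 3 were measured, with sums from 38.6 to 116 with MIG-Hhex and from 65.3 to 149 with MIG. Nkg7 made up most of these sums and was highest in WT3 of both groups, at 6.82 with MIG-Hhex and 7.18 with MIG. Perforin (Prf1) rose by 2.47, with means of −1.35 with MIG-Hhex and −3.82 with MIG (limma adjusted p = 0.0429), while Nkg7 and Gzmb did not pass. The Prf1 difference was 3.90 in WT3, where the MIG value was very low at −5.08, and 1.24 and 2.27 in WT691 and WT703. Left-out runs are not given for Prf1. Of 8 B cell markers, only Cd79b was measured, and it did not pass (limma adjusted p = 0.0607). The 12 LSK and progenitor markers were all present, with 0 higher and 1 lower and sums from 391 to 495 with MIG-Hhex and from 471 to 543 with MIG. Of 9 measured markers of maturing neutrophils 7 rose and 0 fell, and the sum of the 9 ran from 3827 to 5063 with MIG-Hhex and from 1826 to 3157 with MIG. S100a8, the marker of these with the highest mean in both groups, did not pass (limma adjusted p = 0.0666). Among all genes 9.44% were higher and 8.52% lower. The marker lists too were drawn up with earlier results of these data known. Of 10 measured macrophage and dendritic cell markers 4 rose and 1 fell, with sums from 161 to 271 with MIG-Hhex and from 169 to 214 with MIG. The marker that fell, Ccr2, did so by 2.04 from 6.18, the highest MIG mean of the 10, and weighs heavily in their sums. Mast cell, basophil and eosinophil markers gave 2 rises and 3 falls among 9, with sums from 188 to 356 with MIG-Hhex and from 194 to 476 with MIG. Red cell and megakaryocyte markers gave 5 rises and 1 fall among 11, with sums from 94.2 to 104 with MIG-Hhex and from 64.4 to 105 with MIG. The part of these cell types in the levels of the 9 genes was not tested.

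For each of the 9 genes the 2 other genes with the most similar profile over the 6 libraries were found by Pearson's r among 2570 genes with an SD of at least 0.5. Dntt was closest to Msrb3 and Cnrip1 and Satb1 to Sstr2 and Havcr2. Tcf7 was closest to Tnfrsf18 and Susd3, Zbtb16 to Dab2ip and Rgs12, Id2 to Grik5 and Micall2, and Cd7 to Trib1 and Gas6. Cd6 was closest to Spic, a factor of red pulp macrophages, and Mpp2, Cd5 to Kcnab3 and Tle2, and Notch1 to Ccdc186 and Zfp169. The r values lay between 0.976, for Cd5 and Tle2, and 0.999, for Notch1 and Ccdc186. With 6 libraries in 2 groups and 2 flow cells, such values are reached by many genes that share these differences.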

How the data were processed

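RNA was sequenced from 3 MIG-Hhex and 3 MIG libraries, grouped by their labels. The authors deposited 1 table of log2 values for 12161 genes, 60 of them without a symbol. The submitters' processing notes name Subread, featureCounts, limma, edgeR and the build mm10; those sources state neither the normalization formula nor the strand setting. The table holds no counts, so depth is unknown and no counting interval is given. The values were used as deposited, with no further filter or pseudocount.

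Limma 3.58.1 (R 4.3.3) was fitted to all genes with terms for vector and flow cell and a mean-variance trend, leaving 3 residual degrees of freedom. P-values were adjusted by Benjamini-Hochberg over all genes, with a threshold of 0.05. The labels say biological replicates without naming the animals, so p-values measure the spread between these samples. Same-numbered libraries deviated together from their group means (correlations 0.742, 0.585 and 0.656 for WT3, WT691 and WT703). These deviations still held the flow cell difference, which alone can make same-numbered libraries deviate together, so they cannot show pairing. Pairing by number therefore rests on the names in the labels. The fit was tested on simulated data.

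The 9 genes and all lists were chosen with earlier results of these data known. Genes outside the 9 were named as fixed genes, as neighbours, or as up to 3 per list and direction with the smallest p. A few genes that this rule names are not reported here. Coordinates are RefSeq GRCm38.p6 (12052 genes matched); exon lengths are from GENCODE (11740 matched). Of the 9 genes, 6 have RefSeq promoter windows; Cd7, Cd6 and Zbtb16 have none in the table used. Alternatives changed the flow cell term, the replicate block, the trend, the filter, low values, the scaling and the libraries left out.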

Additional observations from a re-analysis of the deposited data

How the results depend on the processing

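The 9 genes kept the sign of their difference in every alternative that gave a value (18 settings, 17 for Cd5, whose mean lies below the filter of 0). These settings reuse the libraries whose differences were known when the genes were picked, so the kept signs are a description only. The fit with a replicate block in place of the flow cell term counted 1506 genes higher and 1473 lower, against 1148 and 1036, kept 6 and 2 of the 9 genes past the threshold, and gave 25 falls among the related genes, against 15. Among the single genes named, the block changed the calls of Flt3 and Kcnab3 alone, both of which passed with it (limma adjusted p = 0.0241 and 0.0382). Dropping the flow cell term left 119 genes past the threshold as higher and 98 as lower, with 2 and 0 of the 9, and 4 and 2 of the related genes. With values below 0 set to 0 the counts were 539 and 512, with 3 and 0 of the 9, and 11 and 5 related genes. Without a trend 638 genes were lower, and 23 and 9 related genes were higher and lower. Using C5LWPANXX only, 698 genes passed as higher and 519 as lower, with 1 of the 9 lower, and 9 related genes lower. Leaving out 1 library or replicate gave 355 to 835 genes higher and 270 to 634 lower, 4 to 6 and 1 to 2 of the 9, 10 to 26 and 4 to 11 related genes, and 1276 to 2843 and 1367 to 2316 genes higher and lower on C3RJFACXX; these fits hold fewer samples. Removing a trend with transcript GC content was chosen after seeing the data and left the calls of the 9 genes between the vectors as they were. The cause of the other changes was not tested. Setting values below 0 to 0 moved the differences of Dntt (−1.65), Zbtb16 (1.04), Cd5 (0.22) and Cd6 (1.90) by more than the spread between replicates.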
